A study of Mus musculus with 2 samples.

Results

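The proteasome genes examined here are the 50 genes, of 32285 listed in the count matrices, whose symbols begin with *Psma* to *Psmg* followed by a digit and that are not marked as pseudogenes. The proteasome is the barrel-shaped protease that degrades proteins tagged with ubiquitin. Its 20S core is built from alpha subunits, which form the gates, and beta subunits, some of which carry the proteolytic sites. The 19S cap, with its ring of ATPases and its lid of non-ATPase subunits, binds, unfolds and feeds the substrate. In blood cells and under interferon, the catalytic beta subunits encoded by *Psmb5*, *Psmb6* and *Psmb7* are replaced in newly built cores by those of *Psmb8*, *Psmb9* and *Psmb10*, which gives the immunoproteasome, a source of peptides for MHC class I molecules. By role the members were 8 alpha genes, 3 constitutive catalytic beta genes, 4 non-catalytic beta genes, 3 immunoproteasome beta genes, 1 thymus-specific beta gene, 6 genes of 19S ATPases, 14 of 19S non-ATPases, 5 of core activators, 1 of a core inhibitor and 4 of assembly chaperones. The remaining gene, *Psmc3ip*, is caught by the symbol rule and encodes a meiotic recombination factor, not a subunit. Roles follow the symbols, so the non-ATPase group holds every *Psmd* gene, among them *Psmd5* and *Psmd10*, which encode assembly chaperones of the cap. The assembly chaperone group holds the *Psmg* genes only.

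The study profiled mouse bone marrow by droplet-based 3′ single-cell RNA sequencing, with 1 library from control mice (Ctrl) and 1 from mice with conditional loss of *Map4k4*, a kinase gene (cKO). In each library, c-Kit-positive cells, a gate that holds stem and progenitor cells, had been mixed with red-cell-lysed marrow, so the cell type proportions follow the mixture and are not compared here. The mice were 13 to 14 weeks old, on C57BL/6, and littermates. The methods write the genotypes as Mx1-Cre Map4k4 f/f for cKO and Mx1-Cre Map4k4 -/- for Ctrl, so both carried Mx1-Cre, whose promoter answers to interferon and is active in blood cells and in other tissues. The floxed alleles were deleted with poly I:C, an RNA mimic that induces interferon. Poly I:C treatment is stated for the cKO mice, and neither the treatment of the Ctrl mice nor the number of mice per library is given in the sources used here. With 1 library per genotype there is no replicate check. No difference between the libraries was tested, and every interval below is a 95% interval that covers counting error alone.

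The Ctrl library comprised 10220 barcodes and 71527701 UMIs (molecule tags, each counting 1 captured RNA), and the cKO library 6872 barcodes and 64393950 UMIs. *Map4k4* itself was measured at 72.4 counts per 1000000 UMIs (CPM) in the library labelled Ctrl and at 64.2 CPM in the library labelled cKO. A 3′ count can include transcripts of an allele with a deleted exon, and the direction of every comparison rests on the labels. The libraries shared 3010 barcodes. Of the 2204 shared barcodes that had a cell type in both libraries, 15.2% had the same one, against 13.5% if unrelated. Cells with at least 1000 UMIs numbered 8795 in Ctrl, with a median of 4940 UMIs, and 5347 in cKO, with a median of 8783 UMIs. Cell types were gated on the share of a cell's UMIs in marker lists, and each cell type compared had at least 50 cells in both libraries. These were stem and multipotent progenitor cells (HSC/MPP), neutrophil progenitors (ProNeu), and cycling precursors rich in secondary granule genes (PreNeu). Later stages were immature neutrophils (imNeu), a class meeting both the immature and the mature gate (imNeu/mNeu) and mature neutrophils (mNeu). The study's labels for monocyte progenitors (ProMon) and megakaryocyte-erythroid progenitors (MEP) were kept for the last gates. The ProMon gate set no cell-cycle condition, so it can also hold monocytes. The MEP class was mainly erythroid, with *Car1*, *Car2*, *Ermap* and *Klf1* among its leading genes, and megakaryocyte markers had a separate gate. The compared cell types held between 79 cells (MEP, cKO) and 1396 cells (imNeu, Ctrl) per library. In imNeu/mNeu, 84 of 366 Ctrl cells and 81 of 437 cKO cells lay within 20% of the cut of a gate. All values of that class below carry this limit. Of the 10 leading genes of each cell type, 6 or 7 were its own markers in HSC/MPP, ProNeu, ProMon and MEP, 8 in mNeu, 5 in PreNeu, 4 in imNeu/mNeu and 2 in imNeu (*Ltf* and *Ifitm6*). The same marker lists set the gates, so these counts are no independent check of the names.

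The members lie on 16 chromosomes of GRCm38, with 10 of them on chromosome 11. *Psmb8* (ENSMUSG00000024338, chromosome 17 from 34197721 to 34201454) and *Psmb9* (ENSMUSG00000096727, chromosome 17 from 34181987 to 34187764) are neighbours in the MHC region, and *Psmb9* overlaps the opposite-strand gene *Tap1*, which encodes a peptide transporter. *Psmb5* (ENSMUSG00000022193) lies on chromosome 14 from 54614119 to 54618022, *Psmb6* (ENSMUSG00000018286) on chromosome 11 from 70525367 to 70527858, and *Psmb10* (ENSMUSG00000031897) on chromosome 8 from 105935735 to 105938444. Another gene overlaps 18 of the members, and strand use in counting is not given in the sources used here. *Psme2b* is a near-copy of *Psme2*, so the reads of both are uncertain. Upstream sequences from RefSeq (GRCm38.p6) were found for 42 of the members, and 250 bases before each RefSeq start were searched on both strands for motifs chosen with the ratios below in view. Shown are *Psmb5* and *Psmb6*, which hold some of the largest ratios below, *Psmb8* of the immunoproteasome, and *Psmc2* and *Psmd2*, cap genes with the motif that was more frequent among the members. Capitals mark an antioxidant response element (TGACNNNGC) in *Psmb5* and *Psmb6*, a gamma-activated sequence (TTCNNNGAA) in *Psmb8* and an ETS site (CCGGAAG, or its reverse complement CTTCCGG) in *Psmc2* and *Psmd2*. The *Psmb5* stretch stops where its annotated gene begins, and 30 bases are shown for *Psmb8* because the stretch lies inside the annotated gene.
Psmb5 (chr14:54618023-54618245, minus strand): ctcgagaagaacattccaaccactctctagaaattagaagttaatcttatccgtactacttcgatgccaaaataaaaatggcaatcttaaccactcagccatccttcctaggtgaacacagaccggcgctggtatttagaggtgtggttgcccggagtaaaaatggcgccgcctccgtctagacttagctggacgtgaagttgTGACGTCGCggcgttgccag
Psmb6 (chr11:70525107-70525356, plus strand): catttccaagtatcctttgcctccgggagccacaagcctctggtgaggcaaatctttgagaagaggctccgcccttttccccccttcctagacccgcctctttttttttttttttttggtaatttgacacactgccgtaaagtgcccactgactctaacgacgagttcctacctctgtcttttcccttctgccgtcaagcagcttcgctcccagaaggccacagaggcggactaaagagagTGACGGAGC
Psmb8 (chr17:34198088-34198117, plus strand): tcctccgctgTTCCCAGAAgatgccccccc
Psmc2 (chr5:21785025-21785274, plus strand): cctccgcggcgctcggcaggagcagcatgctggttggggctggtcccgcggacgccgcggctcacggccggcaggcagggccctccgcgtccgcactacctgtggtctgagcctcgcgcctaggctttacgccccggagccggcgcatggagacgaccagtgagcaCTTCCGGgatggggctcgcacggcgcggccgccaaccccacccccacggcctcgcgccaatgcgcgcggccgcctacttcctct
Psmd2 (chr16:20651402-20651651, plus strand): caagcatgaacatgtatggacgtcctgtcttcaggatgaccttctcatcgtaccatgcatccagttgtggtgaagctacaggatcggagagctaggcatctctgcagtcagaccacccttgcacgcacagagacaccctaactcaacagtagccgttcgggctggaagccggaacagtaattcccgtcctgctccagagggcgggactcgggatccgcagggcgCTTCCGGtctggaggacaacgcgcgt
The antioxidant response element was found in 5 of 42 members (11.9%) and in 11.52% of 27025 genes. The gamma-activated sequence was found in 2 members (*Psmb8* and *Psmg1*, 4.76%) and in 8.13% of genes, and the interferon-stimulated response element (GAAANNGAA) in 3 members (*Psmb3*, *Psmd4* and *Psmd9*, 7.14%) and in 8.18% of genes. A CCAAT box was found in 35.71% of the members and in 37.49% of genes. The ETS site was found in 13 members (30.95%) and in 7.83% of genes. These are matches of letters in a window and were not tested as binding sites.

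Among the cell types compared, the proteasome genes took up the largest shares of UMIs in HSC/MPP, ProNeu, ProMon and MEP. Shares were smallest in late neutrophils. In Ctrl, the 50 genes together held 0.604% of UMIs in HSC/MPP (95% interval 0.598 to 0.611, Clopper-Pearson), 0.717% in ProNeu (0.713 to 0.722), 0.719% in ProMon (0.711 to 0.727) and 0.753% in MEP (0.747 to 0.759). Along the neutrophil stages the share was 0.363% in PreNeu (0.360 to 0.366), 0.262% in imNeu (0.259 to 0.266), 0.221% in imNeu/mNeu (0.214 to 0.229) and 0.228% in mNeu (0.223 to 0.233). The intervals of ProNeu and ProMon overlap, as do those of imNeu/mNeu and mNeu, and the other neighbours in this order do not. ProNeu thus exceeded mNeu 3.14-fold in Ctrl, and 3.75-fold in cKO. When mitochondrial genes and the 50 most abundant genes, many of them granule genes, were left out of the total, these folds were 2.35 and 2.62. Among the cell types with enough cells in Ctrl only, the share was 0.651% in pro-B cells, 0.448% in B cells, 0.512% in T and NK cells, 0.511% in plasmacytoid dendritic cells (pDC) and 0.261% in plasma cells.

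In cKO the summed share was 0.675% in HSC/MPP, 0.769% in ProNeu, 0.832% in ProMon and 0.945% in MEP, each above the Ctrl value by more than counting error. The log2 ratios of cKO over Ctrl were 0.16 (0.13 to 0.19), 0.10 (0.09 to 0.11), 0.21 (0.19 to 0.23) and 0.33 (0.31 to 0.35). In PreNeu the shares were 0.362% in cKO and 0.363% in Ctrl, with a log2 ratio whose interval (-0.02 to 0.02) includes 0. The cKO share was lower in imNeu (0.249%), imNeu/mNeu (0.191%) and mNeu (0.205%), with log2 ratios of -0.08 (-0.10 to -0.05), -0.22 (-0.28 to -0.15) and -0.16 (-0.20 to -0.12). With the reduced denominator the log2 ratio was -0.04 in imNeu/mNeu, -0.03 in mNeu and of the opposite direction in imNeu (0.06), where it was also 0.06 with every cell thinned to 1000 UMIs.

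**Figure D1:**
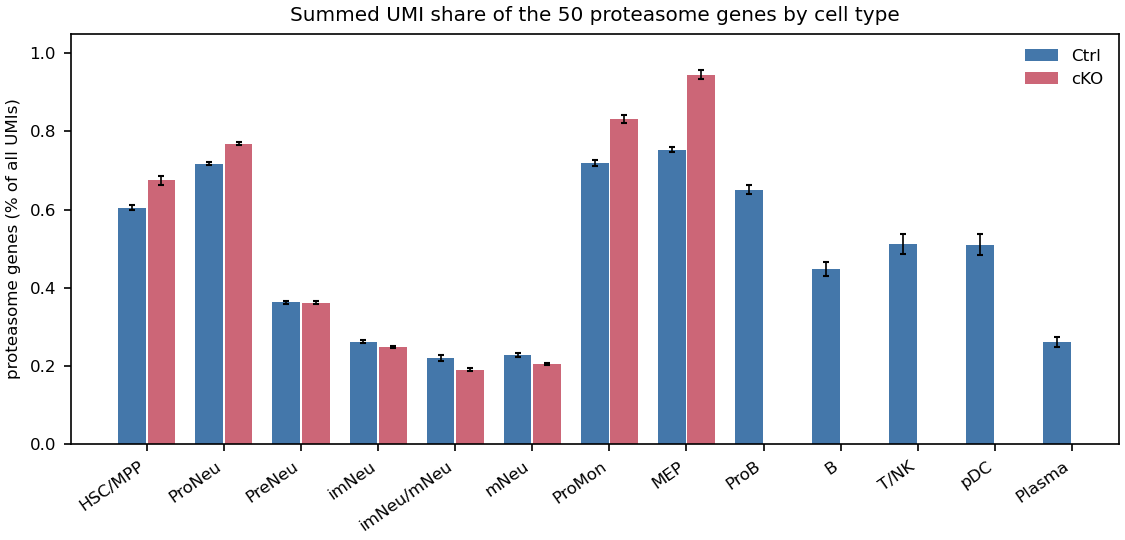
Summed share of the 50 proteasome genes among all UMIs (y axis, percent) by gated cell type (x axis) in Ctrl (blue) and cKO (red), with 95% Clopper-Pearson intervals that cover counting error only. Cell types to the right of MEP had under 50 cells in cKO and are shown for Ctrl. HSC/MPP, ProNeu, ProMon and MEP stand between 0.604% and 0.945% and mNeu at 0.228% and 0.205%.

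Nearly every member had a lower level in mNeu than in ProNeu, and the size of the difference varied between members, also within a role. Of 49 members tested (at least 20 UMIs), 47 had an interval of mNeu over ProNeu below 0 in both libraries and 1 above 0 in both. The share of all genes with such intervals was not computed, and the median of all genes also lay below 0. The median log2 ratio of the members was -1.80 in Ctrl and -2.09 in cKO, where the median of all 10865 genes tested was -1.10 and -1.33. Relative to that median, 27 members lay past a 1.5-fold limit on the lower side in both libraries, and 2 on the upper side. The background was 36.1% of all genes on the lower side and 37.1% on the upper side.

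Among the core genes, *Psma5* had log2 ratios of mNeu over ProNeu of -2.70 in Ctrl and -3.14 in cKO, and *Psma4* of -2.62 and -2.90. Among members with UMIs in mNeu, the largest difference was that of *Psmc3ip*, the gene that is no subunit (-3.77 in Ctrl and -5.11 in cKO). Among subunit and chaperone genes, a low ratio was that of *Psmd7*, a lid subunit that pairs with the deubiquitinase of *Psmd14* (-3.23 in Ctrl and -4.15 in cKO). Of the chaperone genes of the alpha ring, *Psmg1* (-3.31 and -4.46), *Psmg2* (-3.02 and -4.86) and *Psmg4* (-3.34 and -4.36) were also low. *Psmg3*, of the same group, had -2.10 and -2.41. *Psma8*, the testis form of an alpha subunit, had no UMI in mNeu in either library. Smaller differences were found for the lid gene *Psmd8* (-0.85 and -0.77), the ubiquitin receptor gene *Psmd4* (-0.91 and -0.98), the cap assembly gene *Psmd10* (-1.01 and -0.60), the beta gene *Psmb3* (-0.86 and -1.20), the activator gene *Psme4* (-0.58 and -0.04) and the immunoproteasome gene *Psmb9* (-0.24 and -0.44). *Psmb9* and *Psme2b* were the members past the limit on the upper side, *Psme2b* with 2.43 and 2.49 from few molecules. The other immunoproteasome genes lay lower, since *Psmb8* had -1.04 and -1.53 and *Psmb10* had -2.42 and -3.40.

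**Figure D2:**
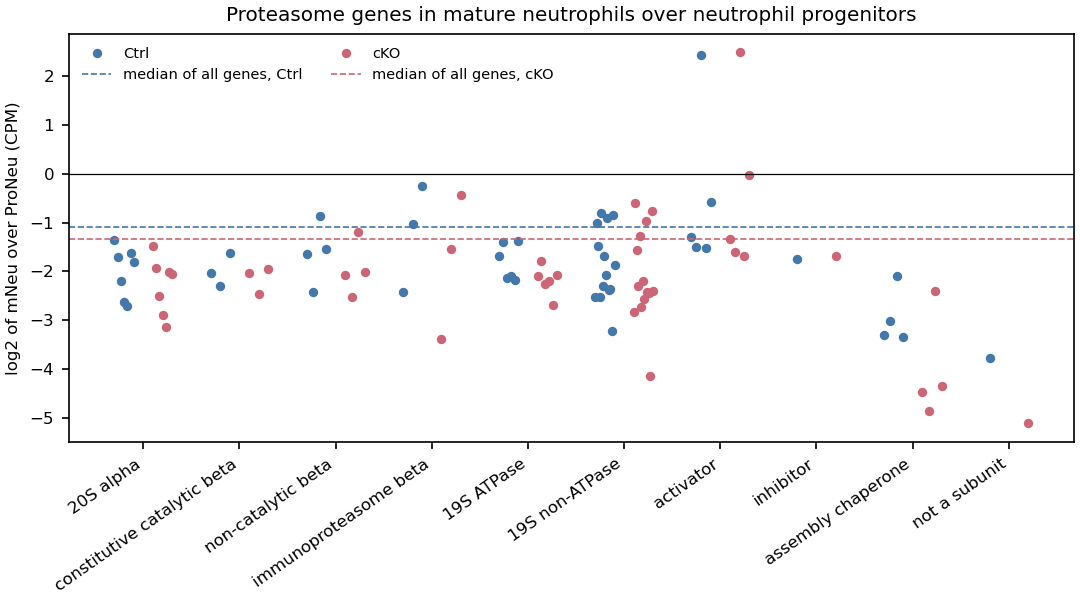
Log2 ratio of mNeu over ProNeu (y axis, from CPM) for each member in Ctrl (blue points) and cKO (red points), grouped by role (x axis), with dashed lines at the median of all genes in each library. *Psma8* is not drawn because it had no UMI in mNeu. Nearly all points lie below 0, with *Psmc3ip* lowest (-3.77 and -5.11) and *Psmg1*, *Psmg2*, *Psmg4* and *Psmd7* next, while *Psme2b* lies above 2 and *Psmb9* near 0.

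Between the libraries, single-gene ratios were read relative to the median of all genes tested in the cell type, because that median itself lay below 0. It was -0.10 (log2 of cKO over Ctrl) in HSC/MPP, -0.29 in ProNeu, -0.35 in PreNeu, -0.41 in imNeu, -0.44 in imNeu/mNeu and in mNeu, -0.20 in ProMon and -0.17 in MEP. A member was called higher or lower past 1.5-fold of that median, a limit of size and not a test. The median of the members lay above it in all 8 cell types, by 0.25 in HSC/MPP, 0.34 in ProNeu, 0.32 in PreNeu, 0.28 in imNeu, 0.14 in imNeu/mNeu, 0.26 in mNeu, 0.39 in ProMon and 0.48 in MEP (log2). All genes that reached 50 CPM in either library had relative medians of -0.01 in HSC/MPP, 0.13 in ProNeu, 0.15 in PreNeu and 0.16 in imNeu. In imNeu/mNeu, mNeu, ProMon and MEP these were 0.10, 0.14, 0.06 and 0.11. Members at that level had medians from 0.19 in imNeu/mNeu to 0.50 in MEP. Between 20.6% (MEP) and 41.0% (imNeu/mNeu) of all genes at that level lay above the members' median. Without centring, the median of the members was below 0 in PreNeu (-0.03), imNeu (-0.12), imNeu/mNeu (-0.30) and mNeu (-0.19) and above 0 in the other 4 cell types. Over the 8 cell types, 54 pairs of a member and a cell type were called higher and 12 lower, against 12 higher and 25 lower without centring. Between 45 and 49 members were tested per cell type, and of the 54 pairs 12 were in ProMon and 15 in MEP. Of all genes, 7.17% (PreNeu) to 12.3% (imNeu/mNeu) were called higher and 6.57% (ProNeu) to 17.4% (mNeu) lower.

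In HSC/MPP, 2 of 49 members were called higher and 0 lower, where 9.53% of all genes were higher and 9.12% lower. ProNeu had 5 of 49 higher and 1 lower, beside a background of 7.49% and 6.57%. PreNeu had 2 of 48 higher and 1 lower (7.17% and 8.85%). The late stages had 5 higher and 1 lower of 48 in imNeu (7.91% and 12.0%), 6 higher and 3 lower of 45 in imNeu/mNeu (12.3% and 14.2%), and 7 higher and 4 lower of 48 in mNeu (10.8% and 17.4%). The higher-side counts farthest above the background were those of ProMon, with 12 higher and 1 lower of 48 (10.2% and 10.1%), and of MEP, with 15 higher and 1 lower of 48 (11.8% and 12.9%). By side alone, without a limit of size, the members above the median were 39 of 49 above the median in HSC/MPP, 42 of 49 in ProNeu, 43 of 48 in PreNeu, 41 of 48 in imNeu, 28 of 45 in imNeu/mNeu, 34 of 48 in mNeu, 43 of 48 in ProMon and 44 of 48 in MEP. Of the 44 members tested in every cell type, 21 lay above the median in all 8 and 0 below it in all 8. Within a cell type, the median by definition has as many of all genes tested above it as below it. The share of all genes on the same side in all 8 was not computed, and the ratios of all cell types come from the same libraries. The count over all 8 is therefore a description of the members and not a trait set against other genes.

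**Figure D3:**
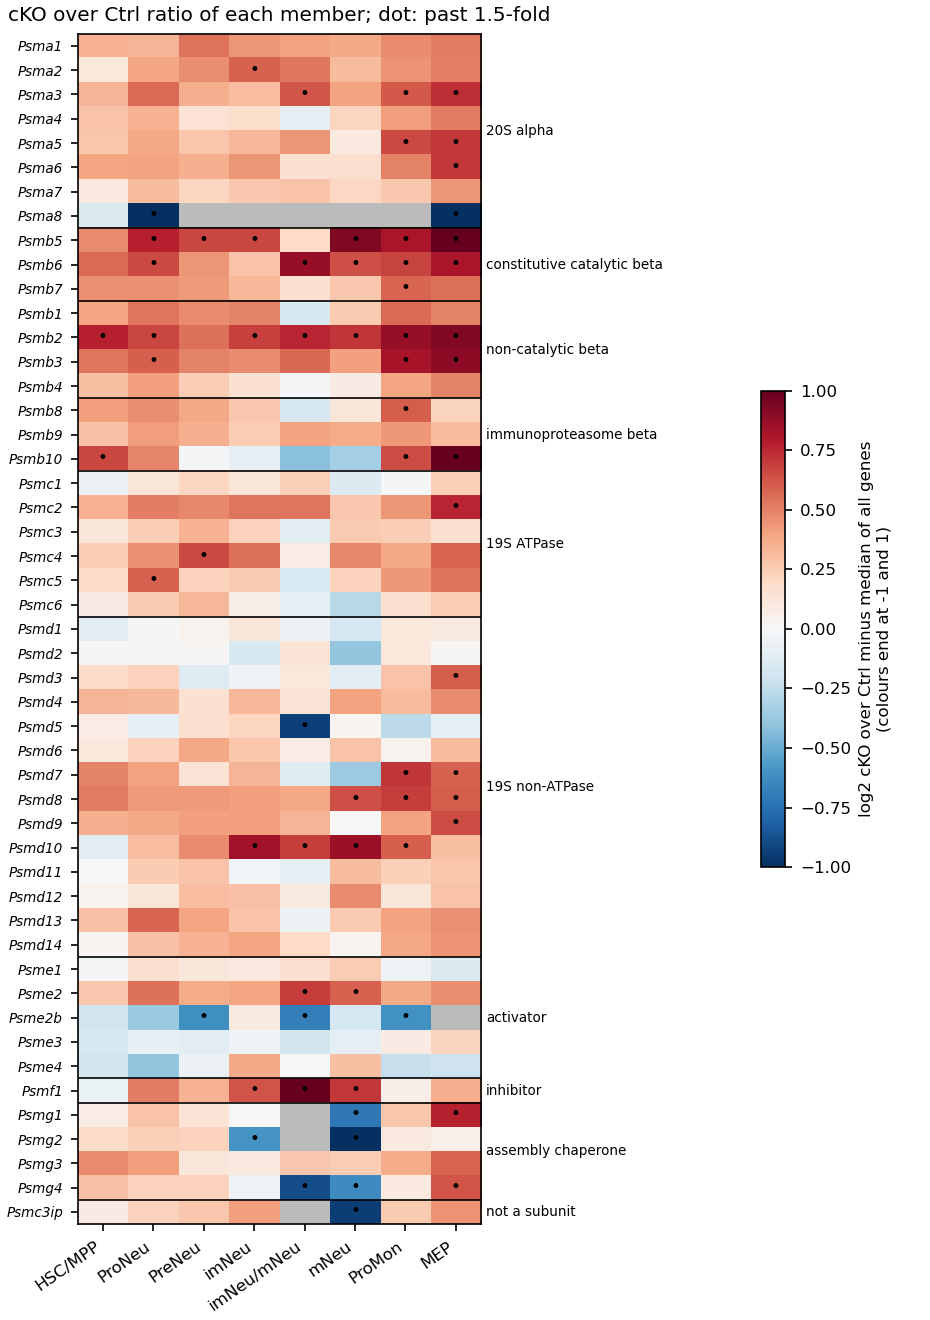
Log2 ratio of cKO over Ctrl minus the median of all genes in the cell type (colour, from blue for lower to red for higher, ending at -1 and 1) for the 49 members tested, ordered by role (rows) in the 8 compared cell types (columns). Dots mark members past 1.5-fold and grey marks under 20 UMIs. *Psmb2*, *Psmb5* and *Psmb6* are red in nearly every column, *Psmb10* is red in HSC/MPP, ProNeu, ProMon and MEP and blue or pale in the neutrophil stages after ProNeu, and the chaperones *Psmg1*, *Psmg2* and *Psmg4* are blue in mNeu. Without centring, every colour shifts by the median of its column toward blue.

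Among the alpha genes of the core, *Psma1* to *Psma7* lay at relative log2 ratios between -0.10 and 0.74 over all 8 cell types, with role medians of 0.28 in HSC/MPP, 0.37 in ProNeu, 0.22 in mNeu and 0.52 in MEP. *Psma1* had one of the narrowest ranges of any member, from 0.34 to 0.54. *Psma3* was called higher in imNeu/mNeu, ProMon and MEP. *Psma2* was called higher in imNeu alone (135 and 153 CPM, 0.59). *Psma8* had at most 5.50 CPM in either library, and its lower call in ProNeu and MEP rests on few molecules.

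The beta genes *Psmb2*, *Psmb5* and *Psmb6* were the members called higher in most cell types. *Psmb2*, a non-catalytic beta subunit gene, had 113 CPM in Ctrl and 181 CPM in cKO in HSC/MPP, 222 and 288 in ProNeu, 41.4 and 50.1 in mNeu, 155 and 246 in ProMon, and 182 and 307 in MEP. It was called higher in 7 of 8 cell types, with relative log2 ratios from 0.55 in PreNeu to 0.92 in MEP. *Psmb5*, whose product carries the chymotrypsin-like site, had 191 CPM in Ctrl and 267 CPM in cKO in ProNeu, 89.7 and 112 in PreNeu, 62.7 and 75.0 in imNeu, 46.4 and 64.9 in mNeu, 142 and 216 in ProMon, and 160 and 285 in MEP. Its relative log2 ratios in these were 0.78 (0.71 to 0.85), 0.67 (0.57 to 0.78), 0.67 (0.50 to 0.84), 0.92 (0.66 to 1.19), 0.81 (0.66 to 0.97) and 0.999 (0.86 to 1.13). In HSC/MPP (135 and 175 CPM) and in imNeu/mNeu (63.7 and 54.2 CPM) it stayed inside the limit. Its CPM was higher in cKO in 7 of 8 cell types, so its direction was the same without centring there, and the opposite in imNeu/mNeu.

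*Psmb6*, which encodes the caspase-like site, was called higher in 5 cell types, from 0.65 in mNeu (35.9 CPM in Ctrl and 41.4 CPM in cKO) to 0.87 in imNeu/mNeu (37.5 and 50.9 CPM). In imNeu its CPM was lower in cKO (77.6 and 71.3) while its relative ratio was 0.29. *Psmb7*, which encodes the trypsin-like site, was called higher in ProMon alone (157 and 204 CPM, relative log2 ratio 0.59) and lay between 0.15 and 0.55 elsewhere. *Psmb3* was called higher in ProNeu, ProMon (255 and 391 CPM, 0.82) and MEP, and *Psmb1* and *Psmb4* in none of the 8. *Psmb11*, the thymus-specific catalytic subunit, could not be tested in any cell type.

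In each cell type, the 19S role medians lay closer to the all-gene median than those of the constitutive catalytic and non-catalytic beta genes. Against the alpha and immunoproteasome genes this did not hold throughout. In mNeu the ATPases had 0.24, the alpha genes 0.22 and the immunoproteasome genes 0.12. Role medians of the ATPases ranged from -0.01 in imNeu/mNeu to 0.40 in MEP and those of the non-ATPases from 0.09 in HSC/MPP to 0.38 in MEP. Calls among the ATPases were *Psmc5* in ProNeu (0.59), *Psmc4* in PreNeu (58.8 and 72.9 CPM, 0.66) and *Psmc2* in MEP (0.76). *Psmd1* and *Psmd2*, which encode the large scaffold subunits of the cap, were not called in any of the 8 cell types. *Psmd2* had 143 CPM in Ctrl and 115 CPM in cKO in ProNeu (relative log2 ratio -0.02) and 60.4 and 40.7 CPM in imNeu (-0.16). Over the 8 cell types *Psmd2* ranged from -0.38 in mNeu (44.4 and 25.1 CPM) to 0.14 in imNeu/mNeu, and *Psmd1* from -0.17 to 0.12. *Psmd8* was called higher in mNeu (70.4 and 81.3 CPM, 0.65), ProMon and MEP. *Psmd10*, which encodes the assembly chaperone gankyrin, was called higher in imNeu, imNeu/mNeu, mNeu and ProMon, at most 0.86. *Psmd5*, another chaperone of the cap's base, was called lower in imNeu/mNeu (-0.94) and not elsewhere.

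The activators varied among themselves. *Psme1* and *Psme2* encode the partner subunits of the interferon-induced PA28 ring, and their ratios differed. *Psme1* had 340 CPM in Ctrl and 310 CPM in cKO in ProNeu, 420 and 352 in ProMon and 239 and 193 in MEP, with lower CPM in cKO in all 8 cell types and relative ratios from -0.14 to 0.26. *Psme2* had 188 and 224 CPM in ProNeu, 283 and 320 in ProMon and 129 and 159 in MEP, with relative ratios from 0.27 to 0.69. *Psme3*, the nuclear activator, had 78.7 and 60.8 CPM in ProNeu and 44.98 and 32.7 in PreNeu, and its relative ratios lay between -0.18 and 0.22. *Psme4*, which encodes the activator PA200, had the lowest relative ratio among members with at least 50 CPM in ProNeu (59.96 and 37.2 CPM, relative -0.40, -0.55 to -0.24), ProMon (81.4 and 60.2 CPM, -0.23) and MEP (71.4 and 54.8 CPM, -0.21). In imNeu it lay above the median, at 0.38 (0.11 to 0.66), with 25.9 and 25.5 CPM. *Psme2b*, whose reads are uncertain, was called lower in PreNeu (3.49 and 1.77 CPM, -0.62), imNeu/mNeu (15.6 and 7.21 CPM, -0.68) and ProMon (44.6 and 25.3 CPM, -0.61). The inhibitor gene *Psmf1* was called higher in imNeu, imNeu/mNeu (1.06) and mNeu from under 20 CPM. It had 60 UMIs in Ctrl and 116 in cKO in imNeu, 6 and 28 in imNeu/mNeu, and 26 and 56 in mNeu. Its uncentred log2 ratio in imNeu/mNeu was 0.71 (-0.59 to 2.28).

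Of the 4 *Psmg* genes, *Psmg1* (-0.71), *Psmg2* (-1.41) and *Psmg4* (-0.63) were called lower in mNeu, as was *Psmc3ip* (-0.94), while *Psmg3* (0.25) was not called and *Psmd10* (0.86), an assembly gene of the cap, was called higher. In mNeu 17.4% of all genes were called lower. These calls rest on few molecules, since the 4 *Psmg* genes together had 129 UMIs in Ctrl and 133 in cKO. *Psmc3ip* had 12 and 8 UMIs, with an uncentred log2 ratio of -1.41 (-2.91 to 0.0006). In MEP *Psmg1* (0.77) and *Psmg4* (0.63) were called higher. Among the 44 members tested in all 8 cell types, *Psmg4* had the widest range, from -0.88 to 0.63. *Psmg2*, tested in 7, ranged from -1.41 to 0.24. In mNeu the 12 cell-cycle genes were all lower in cKO as well (summed share 0.0337% in Ctrl and 0.00951% in cKO), and the 8 ProNeu markers, none of them at 0 in either library, held 0.139% of mNeu UMIs in Ctrl and 0.0639% in cKO. Their part in the chaperone result was not tested.

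In HSC/MPP, ProNeu, PreNeu, ProMon and MEP, the median ratio was lower in each longer class of transcripts, in the members as in all genes. PreNeu had no member over 4000 bases at the level used. For genes that reached 50 CPM in either library, the median relative log2 ratio in ProNeu was 0.50 for transcripts of up to 1000 bases, 0.37 from 1001 to 2000, 0.05 from 2001 to 4000 and -0.21 over 4000. The members in the same classes had medians of 0.60 (7 genes), 0.40 (26), 0.24 (8) and -0.40 (*Psme4*). In MEP the medians of all genes were 0.50, 0.43, 0.05 and -0.20, and those of the members were 0.82 (7 genes), 0.50 (26), 0.32 (10) and -0.15 (2). Most members are short, with *Psmb3* (766 bases), *Psmb6* (798), *Psmb2* (859) and *Psmb5* (899) among the shortest, and *Psmd2* (2961), *Psmd1* (3112) and *Psme4* (6491) among the longest. In imNeu, imNeu/mNeu and mNeu the members did not follow this order, with medians in mNeu of 0.65 (4 genes) up to 1000 bases, 0.26 (12) from 1001 to 2000 and 0.36 (2) from 2001 to 4000, where all genes had 0.30, 0.36 and 0.13. The members lay above all genes of the same length class in all 8 cell types up to 1000 bases, by the least in PreNeu (0.50 against 0.46), and in all 8 from 2001 to 4000 bases. In the class from 1001 to 2000 bases, which holds most members, they lay above all genes in HSC/MPP (0.29 against 0.28), ProNeu, ProMon (0.43 against 0.40) and MEP, and below them in PreNeu (0.36 against 0.39), imNeu (0.28 against 0.38), imNeu/mNeu (0.15 against 0.34) and mNeu. Across members, the Spearman correlation between relative ratio and length was -0.41 in HSC/MPP (49 genes), -0.31 in ProNeu (49), -0.49 in MEP (48), -0.03 in imNeu (48) and -0.04 in mNeu (48). It was -0.14 in PreNeu (48), -0.17 in imNeu/mNeu (45) and -0.30 in ProMon (48). The genes share libraries and depth, so the correlations are descriptions.

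**Figure D4:**
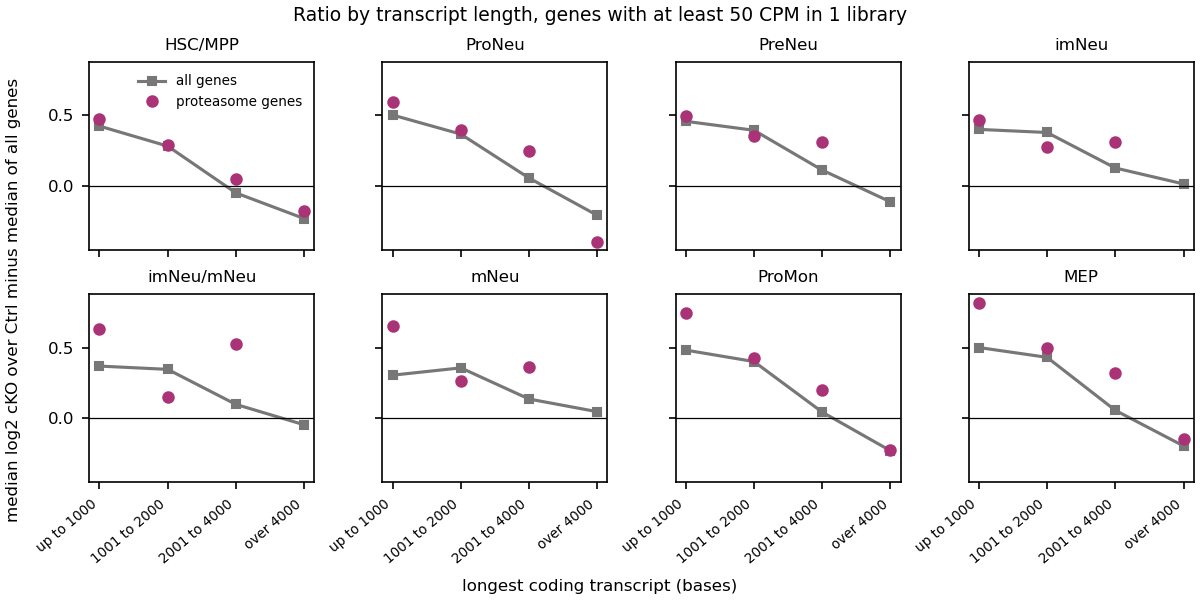
Median log2 ratio of cKO over Ctrl minus the median of all genes (y axis) by class of longest coding transcript (x axis, bases) for all genes (grey squares and lines) and for proteasome genes (purple points) with at least 50 CPM in 1 library, 1 panel per cell type. The medians of the members fall with length, as do those of all genes, in HSC/MPP, ProNeu, PreNeu, ProMon and MEP. Members lie above all genes for transcripts of up to 1000 bases in MEP (0.82 against 0.50). Without centring, each panel shifts down by its all-gene median.

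Other measures of the libraries differed beside these ratios. *Malat1* and *Neat1*, nuclear RNAs, together held 0.796% of UMIs in Ctrl and 0.292% in cKO in HSC/MPP, 0.408% and 0.211% in ProNeu, and 0.419% and 0.297% in mNeu. Ribosomal protein genes, which are short, held 22.5% in Ctrl and 28.2% in cKO in HSC/MPP and 24.3% and 27.5% in ProNeu. Their share was lower in cKO in imNeu/mNeu (3.09% and 2.74%) and mNeu (3.78% and 2.92%), and higher in every other compared cell type. Mitochondrial genes held 2.44% and 2.11% in ProNeu. The median UMIs per cell were 16769.5 and 21884 in ProNeu, 2305.5 and 5830 in mNeu, and 14792 and 32971 in MEP. Their part in the members' ratios was not tested.

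The immunoproteasome share was read within pairs, as the immunoproteasome gene's share of the UMIs of itself and the constitutive gene it replaces. This share does not depend on scaling between the libraries, and it is compared between cell types and libraries and not read as a ratio of proteins, since capture can differ between genes. The genes of a pair also differ in transcript length, with which the ratios above varied. *Psmb8* has 1628 bases and *Psmb5* 899, *Psmb9* 1352 and *Psmb6* 798, and *Psmb10* 1311 and *Psmb7* 1160. The part of length in the shares was not tested. For *Psmb8* with *Psmb5*, the Ctrl share was 72.0% in HSC/MPP, 58.0% in ProNeu, 51.1% in PreNeu, 57.1% in imNeu, 61.4% in imNeu/mNeu, 73.4% in mNeu, 71.1% in ProMon and 26.5% in MEP (24.2 to 28.8). MEP thus had the lowest share and did not overlap with any other cell type. In lymphoid cells of Ctrl it was 68.3% in pro-B cells, 73.6% in B cells, 82.7% in T and NK cells, 79.7% in pDC and 75.9% in plasma cells.

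In cKO the *Psmb8* share was lower in all 8 cell types. It was 71.0% in HSC/MPP, 52.7% in ProNeu, 46.2% in PreNeu, 50.3% in imNeu, 55.1% in imNeu/mNeu, 61.3% in mNeu, 68.0% in ProMon and 17.4% in MEP. The odds ratio of cKO over Ctrl was lowest in mNeu (0.573, 0.459 to 0.714) and MEP (0.584, 0.473 to 0.719), and its interval lay below 1 in 6 cell types, the exceptions being HSC/MPP (0.955, 0.818 to 1.12) and imNeu/mNeu (0.774, 0.555 to 1.08). In mNeu *Psmb8* had 128 CPM in Ctrl and 103 CPM in cKO and *Psmb5* had 46.4 and 64.9 CPM, which relative to the median of all genes is a log2 ratio of 0.12 (-0.05 to 0.30) for *Psmb8* and of 0.92 for *Psmb5*. In MEP *Psmb8* had 57.7 and 59.9 CPM (0.23 relative to the median) and *Psmb5* 160 and 285 CPM. A lower share within the pair is not a lower level. Of all UMIs, the 3 immunoproteasome genes together held more in cKO in HSC/MPP (log2 ratio 0.31), ProNeu (0.16), ProMon (0.37) and MEP (0.37). They held less in imNeu (-0.19), imNeu/mNeu (-0.33) and mNeu (-0.21), and in PreNeu (-0.02) the interval included 0. *Psmb8* was called higher in ProMon alone (349 and 459 CPM, relative log2 ratio 0.60).

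For *Psmb9* with *Psmb6*, the Ctrl share was near even in ProNeu (48.8%), PreNeu (50.1%), imNeu (53.7%) and ProMon (52.5%), 58.1% in HSC/MPP, 72.3% in imNeu/mNeu, 80.0% in mNeu (76.7 to 83.0) and 24.5% in MEP (22.4 to 26.6). In cKO it was 44.7% in ProNeu, 48.6% in PreNeu, 53.1% in imNeu, 48.2% in ProMon, 53.4% in HSC/MPP, 65.1% in imNeu/mNeu, 76.7% in mNeu and 18.6% in MEP. The odds ratios were below 1 in all 8 cell types, with an interval below 1 in HSC/MPP (0.828), ProNeu (0.847), ProMon (0.845) and MEP (0.707). With every cell thinned to 1000 UMIs, which weights cells equally, the odds ratio was below 1 in 3 of 8 cell types for *Psmb9* and in 8 of 8 for *Psmb8*. Without the 5% of cells with most UMIs, or with every marker cut raised 1.5 times, it was below 1 in 7 of 8 for *Psmb8*, and the raised cuts gave 6 of 8 for *Psmb9*. *Psmb9* had the narrowest range of relative ratios of any member, from 0.25 to 0.44, with 143 CPM in Ctrl and 137 CPM in cKO in mNeu.

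*Psmb10* with *Psmb7* showed another pattern. Its Ctrl share was 49.1% in ProMon, 43.7% in HSC/MPP and 37.5% in ProNeu, and between 18.9% and 25.7% in PreNeu, imNeu, imNeu/mNeu, mNeu and MEP, so mNeu had a high share of *Psmb8* and *Psmb9* and a low share of *Psmb10*. In cKO the share was lower in PreNeu (19.9% in Ctrl and 15.4% in cKO), imNeu (24.9% and 19.9%) and mNeu (25.7% and 18.4%), with odds ratios of 0.733, 0.750 and 0.655 whose intervals lay below 1. In MEP it was higher (18.9% and 25.1%, odds ratio 1.43, 1.17 to 1.75), although with thinned cells the MEP odds ratio was 0.997, and in HSC/MPP, ProNeu and ProMon the interval included 1. *Psmb10* had 44.99 CPM in Ctrl and 84.0 CPM in cKO in MEP, the largest relative ratio among members with at least 50 CPM (1.07, 0.82 to 1.32), against 18.5 and 10.7 CPM in mNeu. It was also called higher in HSC/MPP (92.3 and 137 CPM, 0.67) and in ProMon (151 and 207 CPM, 0.65).

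**Figure D5:**
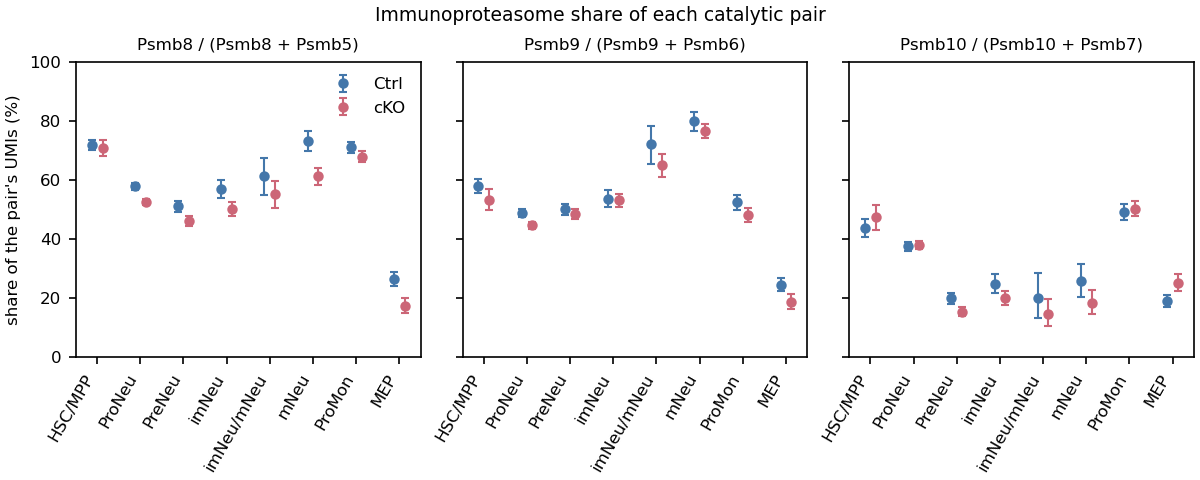
Share of the immunoproteasome gene in the UMIs of its pair (y axis, percent) by cell type (x axis) in Ctrl (blue) and cKO (red), with 95% Clopper-Pearson intervals that cover counting error only. The *Psmb8* share is lower in cKO throughout, from 73.4% to 61.3% in mNeu, MEP has the lowest *Psmb8* and *Psmb9* shares, and the *Psmb10* share is higher in cKO in MEP (18.9% and 25.1%).

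Markers of other cell types were lower in cKO in these cell types. In MEP the 8 ProNeu markers, none at 0, held 0.0887% of UMIs in Ctrl and 0.0291% in cKO, and 9 B cell markers held 0.00285% in Ctrl (none at 0) and 0.00106% in cKO (7 at 0). In mNeu the 11 ProMon markers, none at 0, held 0.0205% and 0.0125%, and the 13 T and NK markers 0.00378% (2 at 0) and 0.000872% (5 at 0). The interferon response list, of which 15 genes were measured, held 0.0260% of UMIs in Ctrl and 0.0198% in cKO in ProNeu, 0.0332% and 0.0210% in imNeu, 0.117% and 0.0953% in mNeu, and 0.0267% and 0.0183% in MEP. Of its members tested, 7 of 14 were called lower in ProNeu (6.57% of all genes), 8 of 14 in PreNeu (8.85%), 7 of 15 in imNeu (12.0%), 6 of 15 in imNeu/mNeu (14.2%) and 7 of 13 in MEP (12.9%), and 0 were called higher in these. The counts were 3 of 15 lower and 1 higher in ProMon (10.1% and 10.2%), 1 of 15 lower and 1 higher in mNeu (17.4% and 10.8%) and 0 of 14 lower and 1 higher in HSC/MPP (9.12% and 9.53%). The part of either in the immunoproteasome shares was not tested.

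Genes around the proteasome were mixed. As background for the counts below, 7.17% (PreNeu) to 12.3% (imNeu/mNeu) of all genes were called higher. On the lower side the background was 6.57% (ProNeu) to 17.4% (mNeu). Of 10 core-associated and assembly genes outside the symbol rule, at most 1 was called higher and 2 lower in any cell type, and the list median lay between -0.17 and 0.12. *Pomp*, the maturation chaperone of the core, had 251 CPM in Ctrl and 288 CPM in cKO in ProNeu and 80.3 and 84.4 CPM in mNeu, with relative ratios from 0.32 to 0.51. The transcription factor gene *Nfe2l1*, which drives proteasome genes when proteasomes are short, had 41.0 and 26.4 CPM in ProNeu. Its relative ratios lay below 0 in all 8 cell types, and it was not called in any. Of the 5 genes of its list none was called in 6 of 8 cell types, with 1 and 2 called higher in imNeu/mNeu and mNeu. These were *Ddi2* in imNeu/mNeu (30.4 and 34.5 CPM, 0.61), and *Ddi2* (23.7 and 56.8 CPM, 1.69) and *Nfe2l2* (87.2 and 98.8 CPM, 0.62) in mNeu. Of 6 ubiquitin genes, 1 to 3 were called higher and 0 lower in each cell type. *Ubb*, which encodes polyubiquitin, had 893 and 1333 CPM in ProNeu, 1305 and 2034 CPM in mNeu, and 502 and 974 CPM in MEP, and it was called higher in all 8. Of 10 genes of MHC class I peptide loading, 0 or 1 was called higher and up to 2 lower, with list medians from -0.21 to 0.15. *Tap1*, the neighbour of *Psmb9*, had 74.8 and 49.96 CPM in mNeu (relative -0.14) and 57.9 and 46.2 CPM in ProNeu (-0.03). It was not called in any of the 8 cell types.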

How the data were processed

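Bone marrow cells of 1 Ctrl and 1 cKO library were profiled by droplet-based 3′ single-cell RNA sequencing. The authors deposited raw UMI counts per gene and barcode, not normalised, for barcodes already called as cells. The submitters' processing notes name Cell Ranger 5.0.0 and mm10. Depth and precision are given per library and interval in the report.

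Cells with 200 to 9000 genes, at most 30% mitochondrial UMIs and at least 1000 UMIs were kept. A cell entered a cell type when the share of its UMIs in that marker list passed a cut and at least 3 marker UMIs were present. Cuts were set after the marker shares were seen. No doublet caller was run, and cells that met the gates of several lineages (483 in Ctrl, 102 in cKO) or of none (593 and 210) were left out. In all, 446 and 284 cells lay within 20% of a cut. Of the imNeu/mNeu cells, 84 of 366 in Ctrl and 81 of 437 in cKO did. With raised marker cuts this class held 71 and 133 cells, so its membership depends on where the cuts lie. Cell types with at least 50 cells in each library were compared.

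Counts were summed per cell type and library, since cells are not replicates. A gene was tested with at least 20 UMIs, 0.5 was added to both counts for the median of all genes, and calls are past 1.5-fold of that median. Shares carry Clopper-Pearson intervals and ratios the exact conditional binomial interval. The rule for naming members covered the catalytic and immunoproteasome genes and *Psme1* to *Psme3*. It also covered the 3 highest and 3 lowest relative ratios per cell type among members with at least 50 CPM. Members with the widest and narrowest range were included too. Some members that meet this rule are not given for every cell type, so the values in the text are a selection. Other members named were chosen after their values were seen. The members and lists were chosen with earlier results of these data known. Positions come from GENCODE vM21, which holds 32158 of the 32285 identifiers. The calculations were tested on simulated data. Software was scikit-learn 1.9.0, leidenalg 0.10.2, matplotlib 3.10.9, pandas 2.3.3, scipy 1.17.1 and numpy 2.4.6 under Python 3.11.15. Alternatives were other floors, ceilings, denominators, scalings, limits and cell groupings.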

Additional observations from a re-analysis of the deposited data

Results flagged for a closer look

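Several values lay on opposite sides in different cell types, each with an interval on 1 side or past the 1.5-fold limit. The differences between cell types were not tested, and no replicate is available.

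The log2 ratio of the summed proteasome share (cKO over Ctrl) was above 0 in HSC/MPP (0.159), ProNeu (0.10), ProMon (0.21) and MEP (0.327), and below 0 in imNeu (-0.0774), imNeu/mNeu (-0.215) and mNeu (-0.157). The imNeu value changed sign with the reduced denominator and with thinned cells. Those of imNeu/mNeu and mNeu were much smaller in size with the reduced denominator. The odds ratio of the *Psmb10* share in its pair with *Psmb7* was 0.733 in PreNeu, 0.750 in imNeu and 0.6555 in mNeu, and 1.43 in MEP. With thinned cells the MEP value was 0.9973. Relative to the median of all genes, the log2 ratio of the chaperone gene *Psmg1* was 0.769 in MEP and -0.714 in mNeu. That of *Psmg4* was 0.631 in MEP, -0.884 in imNeu/mNeu and -0.626 in mNeu. The late neutrophil values of these chaperone genes rest on few molecules. All *Psmg* genes together had 129 UMIs in Ctrl and 133 in cKO in mNeu.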

How the results depend on the processing

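No paired analysis was possible because each group has 1 library. Of the 13 alternatives, 2 were chosen after seeing the data (marker cuts raised 1.5 times, and centring on genes with at least 50 CPM). The cause of the changes below was not tested. The Leiden clusters mostly came from 1 library each.

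The fold of ProNeu over mNeu in Ctrl was 3.318 with a floor of 2000 UMIs, 2.884 with Leiden clusters, 3.064 without the 5% of cells with most UMIs, 2.919 with cells thinned to 1000 UMIs and 2.347 without mitochondrial and the 50 most abundant genes. In cKO the last 4 gave 3.575, 3.654, 3.462 and 2.617. The log2 ratio of the summed share with Leiden clusters was 0.2375 in HSC/MPP, 0.1482 in ProNeu, 0.13 in PreNeu, 0.2375 in ProMon and 0.2668 in MEP. With thinned cells it was 0.06985 in HSC/MPP, 0.05593 in ProNeu, 0.0325 in PreNeu, 0.05674 in imNeu (a change of sign), 0.1613 in ProMon and 0.207 in MEP. With the reduced denominator it was 0.1289 in ProNeu, 0.09326 in PreNeu, 0.05908 in imNeu (a change of sign), -0.04193 in imNeu/mNeu, -0.02866 in mNeu and 0.3008 in MEP. Raised cuts gave 0.12 in HSC/MPP, -0.1402 in imNeu and -0.08029 in imNeu/mNeu, the floor of 2000 UMIs gave -0.08433 in mNeu, and leaving out the 5% of cells with most UMIs gave 0.02163 in PreNeu.

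The 54 higher pairs became 12 without centring, 19 with median-of-ratios scaling, 2 with a 2-fold limit and 29 with centring on genes with at least 50 CPM. The 12 lower pairs became 25 without centring, 2 with at least 100 UMIs and 3 with a 2-fold limit. Of the 66 called pairs, 24 remained called without centring and 31 with median-of-ratios scaling, and 29 of the 53 that could be tested with thinned cells, where 2 changed sign, *Psmd9* (-0.6521) and *Psma6* (-0.01009), both in MEP. Without centring, the members' median was -0.02771 in PreNeu, -0.1239 in imNeu, -0.303 in imNeu/mNeu (-0.04486 with median-of-ratios scaling) and -0.1859 in mNeu, and 39 in place of 67 role medians lay above 0.

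With thinned cells the *Psmb8* odds ratio was 0.7584 in HSC/MPP, 0.6039 in ProNeu, 0.4568 in PreNeu, 0.5516 in imNeu and 0.3209 in MEP, where Leiden clusters gave 0.3982. That of *Psmb9* was 1.081 in HSC/MPP, 1.106 in ProNeu, 1.067 in PreNeu, 1.331 in imNeu, 1.043 in ProMon and 0.4924 in MEP (0.5728 with Leiden clusters), and raised cuts gave 1.105 in imNeu/mNeu. That of *Psmb10* was 0.3658 in imNeu/mNeu (0.3309 with raised cuts) and 0.9973 in MEP. Depth limits the late neutrophil stages most, where members such as *Psmg1* had under 10 CPM.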
